A study of Mus musculus with 6 samples.

Results

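The 9 genes described here, Muc2, Tff3, Fcgbp, Clca1, Agr2, Zg16, Spink4, Klk1 and Rep15, are products of goblet cells, chosen by name out of 32285 measured genes, and their raw unique molecular identifiers (UMIs, 1 per captured RNA molecule) were summed by cell class in all 6 libraries. The libraries hold single jejunal epithelial cells of male wildtype C57BL/6J mice of about 30 weeks of age. The mice had been fed a low-fat diet (LFD) or a high-fat diet (HFD) for 16 weeks and were killed 5 weeks after sham surgery or vertical sleeve gastrectomy (VSG), an operation that removes much of the stomach. The 3 groups were LFD sham (3 mice pooled), HFD sham (3 mice pooled) and HFD VSG (2 mice pooled), and each gave 1 crypt library and 1 villus library. With 1 pooled library per group and fraction there was no replicate of a diet or surgery, so none was tested, and the fractions are described by the ratio within each of the 3 groups, with no test. Every interval below is an exact 95% interval for counting error alone, and a difference between libraries has no replicate check.

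After filtering, 2956 to 4701 cells per library remained, with medians of 8541 to 30243 UMIs per cell. In 5 cell classes the make-up of the libraries went against the fraction labels in all 3 groups. Stem-like cells made up 1.38%, 2.40% and 3.68% of cells in the crypt-labelled libraries of LFD sham, HFD sham and HFD VSG, against 8.29%, 4.41% and 12.1% in the villus-labelled ones. Paneth-like cells made up 1.63%, 1.05% and 0.893% against 4.05%, 6.09% and 2.23%, whereas enterocyte-like cells made up 18.7%, 17.7% and 20.3% against 7.26%, 11.0% and 4.55%. Cycling progenitor-like cells made up 0.744% to 1.23% of the crypt-labelled and 1.78% to 6.03% of the villus-labelled libraries, and early progenitor-like cells 2.45% to 5.81% and 5.70% to 14.9%, each lower in the crypt-labelled library of its group. At the finer resolution more cells were named enterocyte-like. For the early progenitor class, 2 clusters were kept out by a condition set after the data were seen. Immune-like cells made up 3.02%, 2.74% and 1.51% of the crypt-labelled and 13.4%, 0.186% and 9.78% of the villus-labelled libraries, and 42.4% to 67.8% of the cells of a library were in unnamed clusters. Crypt-labelled and villus-labelled therefore refer to the labels only. Pairs of libraries shared 1 to 10 cell barcodes. The median UMI count of the HFD VSG villus-labelled library was the highest of the 6.

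Goblet cells of the small intestine fill a large apical granule with the gel-forming mucin Muc2 and release it as the mucus that separates the epithelium from the gut contents. The mucin is folded and cross-linked in the endoplasmic reticulum, glycosylated in the Golgi apparatus, and secreted together with other proteins that bind to, cut or stabilise the gel. Paneth cells, which secrete antimicrobial peptides from the base of the crypt, come from the same secretory lineage as goblet cells.

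Of the gel itself, Muc2 (ENSMUSG00000025515) is the mucin that forms it, Fcgbp (ENSMUSG00000047730) is a large protein that is stored and secreted with the mucin, Clca1 (ENSMUSG00000028255) is a metalloprotease of the mucus, and Zg16 (ENSMUSG00000049350) is a lectin that binds bacteria. Agr2 (ENSMUSG00000020581) is a disulfide isomerase of the endoplasmic reticulum that mucin production needs. Tff3 (ENSMUSG00000024029) is a trefoil peptide of epithelial repair, and Spink4 (ENSMUSG00000028415) is a secreted peptide of the Kazal-type serine protease inhibitor family. Klk1 (ENSMUSG00000063903) is a tissue kallikrein, a secreted serine protease, and Rep15 (ENSMUSG00000040121) encodes an effector of the vesicle GTPase Rab15. In the GRCm38 annotation (GENCODE vM21), 4 of the genes lie on chromosome 7: Muc2 from 141690340 to 141754693, Fcgbp from 28071236 to 28120862, Klk1 from 44225360 to 44229618 and Zg16 from 127050156 to 127087328. Clca1 lies on chromosome 3 from 145003817 to 145032776, Spink4 on chromosome 4 from 40920052 to 40931395, Rep15 on chromosome 6 from 147032584 to 147034245, Agr2 on chromosome 12 from 35992907 to 36004087 and Tff3 on chromosome 17 from 31125306 to 31129646. Clca1, Zg16 and Tff3 are on the minus strand. Klk1 has near-identical neighbours in the Klk1b family, so its counts are less certain than those of the others.

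The RefSeq promoter sequences used here (GRCm38.p6) held 4 of the 9 genes, Muc2, Fcgbp, Agr2 and Klk1. Tff3, Clca1, Zg16, Spink4 and Rep15 were not among them. The 250 bases before the RefSeq start of each of the 4 genes are shown because these genes share 1 cell class in all 6 libraries. For Agr2 the RefSeq start lies downstream of the GENCODE start given above, so the end of its window overlaps the gene as placed there. All 4 are on the plus strand, at chr7:141690090-141690339 (Muc2), chr7:28070986-28071235 (Fcgbp), chr12:35992675-35992924 (Agr2) and chr7:44225110-44225359 (Klk1). Capitals mark CACACCC or its reverse complement GGGTGTG, a word bound by many Krüppel-like factors.
Muc2: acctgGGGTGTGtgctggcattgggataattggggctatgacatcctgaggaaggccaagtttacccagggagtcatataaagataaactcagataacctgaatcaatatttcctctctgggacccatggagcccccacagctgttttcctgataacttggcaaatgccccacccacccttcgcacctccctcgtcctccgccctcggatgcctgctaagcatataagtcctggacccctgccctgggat
Fcgbp: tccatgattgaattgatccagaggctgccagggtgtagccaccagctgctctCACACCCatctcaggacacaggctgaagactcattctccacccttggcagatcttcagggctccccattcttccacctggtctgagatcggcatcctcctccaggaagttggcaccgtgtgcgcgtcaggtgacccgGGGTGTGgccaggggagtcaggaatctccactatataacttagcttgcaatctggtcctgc
Agr2: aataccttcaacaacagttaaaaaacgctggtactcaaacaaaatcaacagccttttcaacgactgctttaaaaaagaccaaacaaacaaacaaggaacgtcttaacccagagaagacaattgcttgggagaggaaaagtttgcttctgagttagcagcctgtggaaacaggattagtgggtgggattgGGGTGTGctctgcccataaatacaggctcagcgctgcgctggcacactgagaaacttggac
Klk1: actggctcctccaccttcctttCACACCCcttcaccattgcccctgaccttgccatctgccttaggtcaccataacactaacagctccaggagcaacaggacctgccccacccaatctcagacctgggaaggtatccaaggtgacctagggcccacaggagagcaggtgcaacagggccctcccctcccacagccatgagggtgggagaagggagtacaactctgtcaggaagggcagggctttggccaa
The word stood in all 4, 2 times in Fcgbp, and in 6.93% of all 32851 promoters cut to the same length. It was the only one of 10 words searched on both strands that all 4 held, and it was picked for printing after the search. The E-box words CAGCTG and CAGGTG, which stood in 13% and 17.2% of all promoters, were each in 2 of the 4, and the ETS word AGGAAGT (7.69%) was in Fcgbp. The TATA-like words TATAAA (12.4%) and TATAAG (6.65%) were in Muc2, and TTTATG (10.8%) was in Agr2. The words TGTTTAC (3.17%), TGTTTGC (4.3%) and GATAAG (6.55%) were in none of the 4. These matches describe the letters in this window only.

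In CPM, the UMIs of a gene scaled to a common total of UMIs of the class, goblet-like cells were the class with the highest level of each of the 9 genes in each of the 6 libraries, an order that for Spink4 depended on the scale. They formed 1 cluster of 1256 cells in which all 12 goblet markers, none of them a member of the set, were raised. The 9 genes had also been left out of the clustering. There were 125, 85 and 151 goblet-like cells in the crypt-labelled libraries of LFD sham, HFD sham and HFD VSG and 316, 293 and 286 in the villus-labelled ones, and library values below are given in this order. Levels are given in CPM, and reads were counted at the 3′ end, so levels were not divided by gene length.

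Together the 9 genes took 15.4%, 13.8% and 14.4% of all goblet-like UMIs in the crypt-labelled libraries and 9.63%, 12.2% and 11.2% in the villus-labelled ones. In single cells the share ran from 0.0503% to 50.8%, with library medians of 8.38% to 16.7%. The 3 crypt-labelled libraries were thus all above the 3 villus-labelled ones, and within every library the cells differed widely.

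Muc2 stood at 15757, 13615 and 14256 CPM in the crypt-labelled libraries and at 7899, 8963 and 5964 CPM in the villus-labelled ones. Fcgbp stood at 37440, 35337 and 36538 CPM and at 19847, 23224 and 14158 CPM. Both genes were higher in every crypt-labelled library than in any villus-labelled one, and both were lowest in HFD VSG villi.

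Zg16, the lectin, stood at 50131, 43512 and 39455 CPM in the crypt-labelled and 22846, 31834 and 28573 CPM in the villus-labelled libraries. Clca1, the protease, stood at 4111, 4040 and 6509 CPM and at 1639, 3137 and 2880 CPM. For these 2 genes too the fractions did not overlap, with HFD VSG crypts highest for Clca1 and LFD sham villi lowest for both. The share of all genes with fractions that did not overlap is not given. The order of Muc2, Fcgbp, Zg16, Clca1 and the sum is therefore not read as particular to the mucus genes.

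Agr2, the isomerase, had 7277, 8265 and 8523 CPM in the crypt-labelled libraries and 9559, 11178 and 12700 CPM in the villus-labelled ones. Its order was thus opposite to that of the gel proteins, with all 3 villus-labelled libraries above all 3 crypt-labelled ones. The share of all genes with this order is not given either. Tff3 had 25299, 22855 and 21928 CPM and 18602, 22958 and 24972 CPM, and its fractions overlapped. Spink4 had 12758, 9702 and 15453 CPM and 14793, 19532 and 21446 CPM, which overlapped only in that HFD VSG crypts lay above LFD sham villi.

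Klk1 and Rep15 rested on the fewest UMIs, from 225 to 6025 a library. Klk1 had 485, 514 and 812 CPM and then 619, 902 and 819 CPM, and Rep15 had 469, 336 and 489 CPM and then 503, 582 and 487 CPM. The widest interval relative to its value was that of Rep15 in HFD sham crypts, 294 to 383 CPM. With every cell thinned to 1500 UMIs, 34.1% to 51.7% of goblet-like cells held a Rep15 UMI and 37.6% to 62.7% a Klk1 UMI, against 97.6% to 100% for Tff3, 97.5% to 100% for Fcgbp and 92.7% to 97.6% for Muc2.

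**Figure D1:**
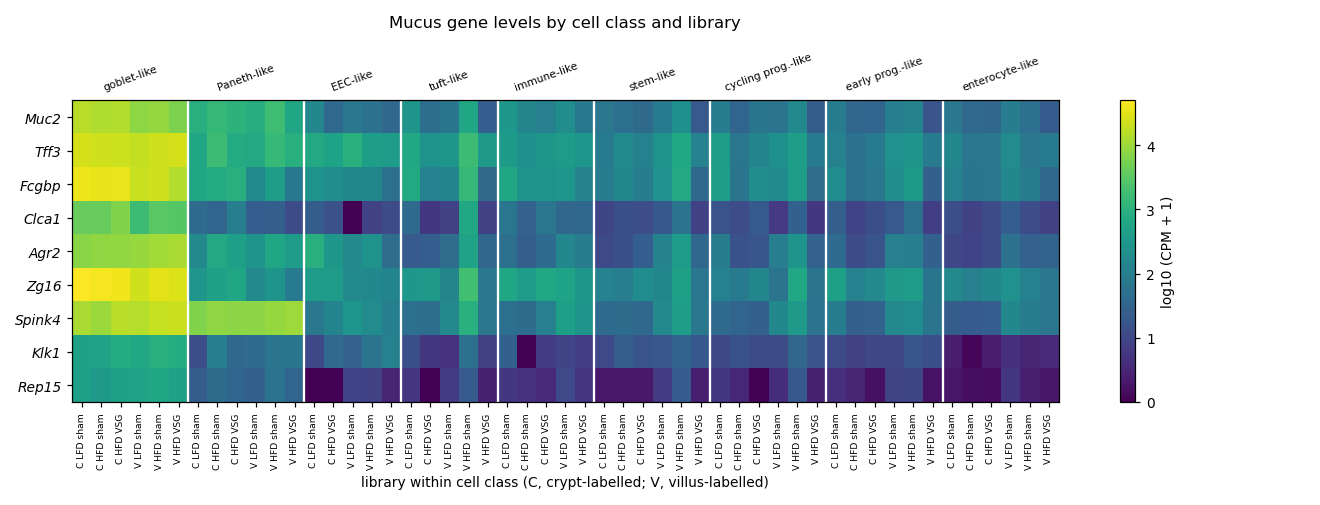
Level of each mucus gene (rows) as log10 of CPM plus 1 in each cell class and library (columns, classes with at least 20 cells). The goblet-like columns are brightest for all 9 genes, and the Paneth-like columns approach them only for Spink4.

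Below the goblet-like cells, the order of the classes depended on the gene. Paneth-like cells came second in 6 of 6 libraries for Muc2, Spink4 and Rep15, in 5 of 6 for Agr2, in 3 of 6 for Tff3, in 2 of 6 for Fcgbp, Clca1 and Klk1 and in 1 of 6 for Zg16. The goblet-like level was 5.26 to 18.1 times that of the next class for Muc2, 13.6 to 37.4 times for Tff3, 17.1 to 111 times for Fcgbp and 17.1 to 93.8 times for Zg16. For Spink4 it was only 1.16 to 2.14 times.

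Spink4 was therefore shared by both secretory classes. In Paneth-like cells (629 cells in all, with 12 of 12 Paneth markers raised) it stood at 6567, 8392 and 7639 CPM in the crypt-labelled libraries and at 7711, 9122 and 10438 CPM in the villus-labelled ones. These levels were 51.5%, 86.5% and 49.4% of the goblet-like level in the first 3 libraries and 52.1%, 46.7% and 48.7% in the other 3. The 6 libraries thus agreed within a narrow range apart from HFD sham crypts, which held 31 Paneth-like cells and the lowest goblet-like Spink4.

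The detection of Spink4 in Paneth-like cells was near complete. After thinning to 1500 UMIs, 82.9% to 100% of Paneth-like cells held a Spink4 UMI, against 81.6% to 97.3% of goblet-like cells, 3.67% to 24.9% of enterocyte-like cells and 5.00% to 50.2% of immune-like cells in the libraries with at least 20 of these. The unthinned shares in Paneth-like cells were 88.4% to 100%, with median depths of 2910.5 to 45224 UMIs. Paneth-like cells differed in quality between libraries, with a median mitochondrial share of 1.74% in LFD sham villi, 3.02% to 6.31% in the crypt-labelled libraries and HFD sham villi and 10.9% in HFD VSG villi, where 13 of 95 cells had under 1500 UMIs. At the finer resolution 396 cells (median 31558 UMIs) were Paneth-like, and 206 cells (median 2612 UMIs) with 11 of 12 Paneth markers, led by RNAs of damaged droplets, stayed unnamed. Spink4 was then at a median of 51.7% (49.7% to 93.3%) of the goblet-like level. Enterocyte-like cells, at median depths of 9782.5 to 34165.5 UMIs, served with the shallower immune-like cells as classes that should lack the genes. The Paneth-like level of Spink4 was 49.0 to 384 times the enterocyte-like level, and the cell with the most Spink4 held 3.16% to 17.8% of the Paneth-like sum.

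Whether goblet-like or Paneth-like cells held more Spink4 depended on the scale. The 12 Paneth markers alone took 610572 to 660565 CPM in Paneth-like cells, which lowers the CPM of all other genes there. On a median-of-ratios scale, which sets the typical gene equal between the classes, Spink4 was higher in Paneth-like cells in every library, at a median of 194% of the goblet-like level (range 149% to 309%). On that scale Muc2 was at a median of 37.2% (18.3% to 60.7%), Rep15 at 26.4% (16.6% to 47.6%), Klk1 at 25.5% (8.33% to 71.9%), Tff3 at 15.1% (8.05% to 25.6%) and Agr2 at 14.7% (7.48% to 29.9%) of the goblet-like level. In UMIs per cell, Paneth-like cells held 106, 175 and 246 and then 305, 130 and 307, against 158, 76.3 and 183 and then 220, 214 and 552 in goblet-like cells.

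Of the gel components, Muc2 stood highest in Paneth-like cells, at 871, 1377 and 1075 CPM in the crypt-labelled and 835, 1704 and 610 CPM in the villus-labelled libraries. This was 5.53% to 19.0% of the goblet-like level and 8.54 to 35.5 times the enterocyte-like level. After thinning, 46.3% to 82.1% of Paneth-like cells held a Muc2 UMI, against 5.67% to 15.2% of enterocyte-like cells and 10.8% to 32.8% of immune-like cells. No single Paneth-like cell held more than 15.7% of the Muc2 sum.

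Agr2 and Tff3 were also above the classes that should lack them. Agr2 had 165, 691 and 453 CPM and then 275, 615 and 392 CPM in Paneth-like cells, at 2.26% to 8.37% of the goblet-like level and 4.76 to 88.5 times the enterocyte-like level. Tff3 had 616, 1639 and 794 CPM and then 679, 1390 and 901 CPM, at 2.44% to 7.17% of goblet-like and 3.76 to 23.7 times enterocyte-like cells. The highest of these values came from HFD sham crypts, where 1 of 31 cells held 30.4% of the Agr2 sum and 1 held 34.9% of the Tff3 sum. Without the top cell of each gene they were at 6.29% and 5.04% of the goblet-like level. After thinning, 16.7% to 36.7% of Paneth-like cells held an Agr2 UMI, against 6.25% to 23.1% of immune-like cells in libraries with at least 20 of these. After thinning, 55.8% to 62.1% of Paneth-like cells held a Tff3 UMI, and 32.5% to 50.7% of immune-like cells did in the libraries with at least 20 of these. The Paneth-like share was the higher one in each of these libraries.

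Rep15 in Paneth-like cells ran from 23.5 to 59.8 CPM, from sums of 25 to 195 UMIs, at 5.02% to 13.3% of the goblet-like level. Klk1 ran from 12.2 to 103 CPM from 13 to 283 UMIs. In enterocyte-like cells Rep15 was at 0.422 to 4.71 CPM and Klk1 at 0.156 to 3.54 CPM. In immune-like cells of LFD sham crypts Klk1 was at 28.3 CPM, above the Paneth-like 12.2 CPM of that library, while Rep15 was at most 9.74 CPM in this class.

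Fcgbp, Clca1 and Zg16 were the genes with the least in Paneth-like cells relative to goblet-like cells. Fcgbp was at 0.548% to 2.46%, Clca1 at 0.385% to 1.58% and Zg16 at 0.306% to 1.45% of the goblet-like level. In immune-like cells Zg16 was as high as 305 to 662 CPM, against 87.5 to 572 CPM in Paneth-like cells. Single cells also weighed more on these sums, since the top cell held up to 49.2% of the Paneth-like Fcgbp, 66.7% of the Clca1 and 58.3% of the Zg16. The values also moved with the processing. With the stated free RNA subtracted, the median over libraries was 0.575% for Fcgbp, 0.591% for Clca1 and 0.174% for Zg16, each at 0 in the lowest library, and with cells thinned to 1500 UMIs it was 3.57%, 2.34% and 1.85%. On the median-of-ratios scale it was 5.63%, 3.14% and 2.80%. After the same subtraction the median was 50.4% for Spink4 (44.8% to 73.3%), 8.74% for Muc2 (0.347% to 17.6%), 3.23% for Tff3 (0 to 3.80%) and 2.68% for Agr2 (2.17% to 5.21%).

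For the 9 genes summed, the Paneth-like level was 5.97%, 9.81% and 8.06% of the goblet-like level in the crypt-labelled libraries and 10.3%, 11.2% and 11.3% in the villus-labelled ones, a median of 10.1%. On the median-of-ratios scale the median was 35.4% (range 19.7% to 42.7%). Leaving out the Paneth-like cells whose goblet marker UMIs reached the 10th percentile of goblet-like cells (1 to 18 cells per library), the median was 10.0% for the sum, 50.2% for Spink4 and 10.1% for Muc2, but 1.03% in place of 1.74% for Fcgbp.

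**Figure D2:**
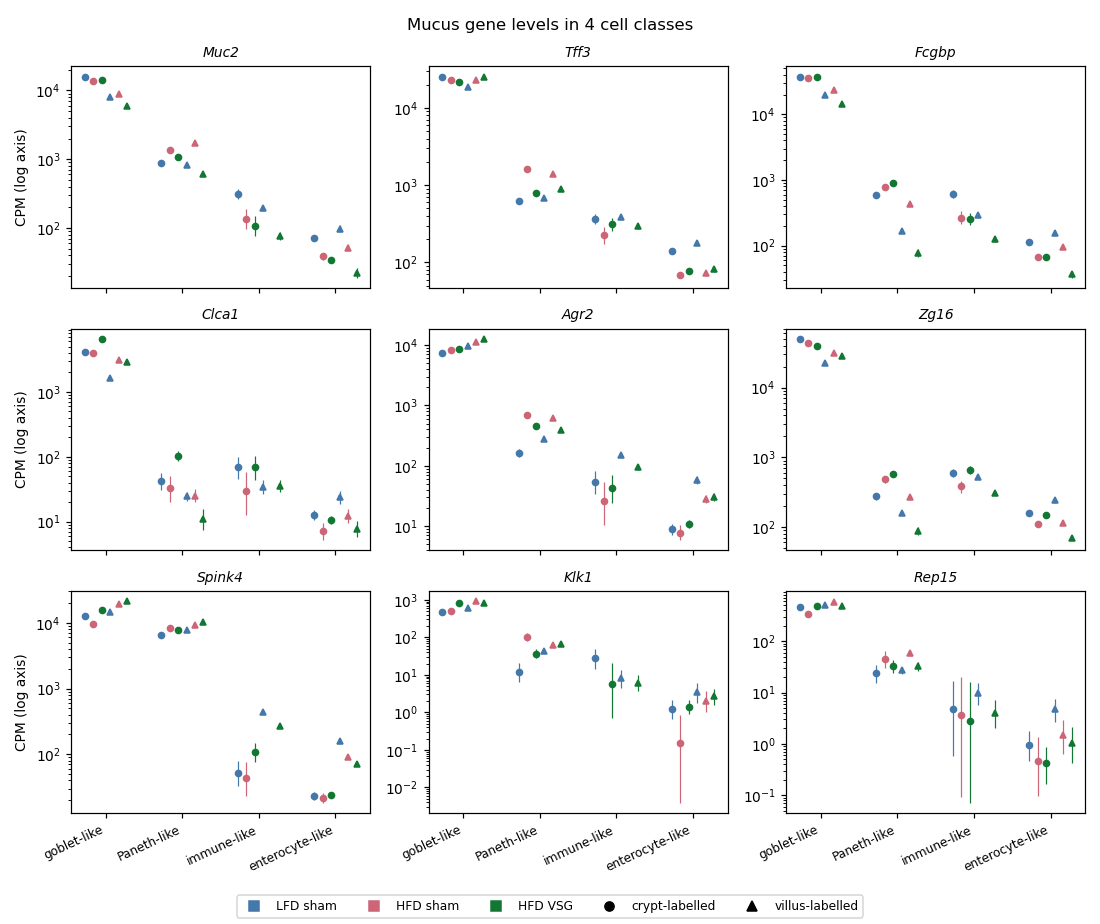
CPM (log axis) of each mucus gene in 4 cell classes, by library, with exact Poisson 95% intervals; colours are groups, circles crypt-labelled and triangles villus-labelled libraries. Sums of 0 UMIs and the 7 immune-like cells of HFD sham villi are not drawn. Spink4 in Paneth-like cells lies just below its goblet-like level, while Zg16 and Clca1 in Paneth-like cells overlap with immune-like cells.

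The mix of the 9 genes also set Paneth-like cells apart. Spink4 made up 61.9% to 82.7% of their mucus UMIs, against 7.02% to 19.1% in goblet-like cells and 6.70% to 23.4% in droplets with fewer than 100 UMIs, which hold free RNA. Zg16 made up 0.694% to 4.93% in Paneth-like cells, 23.7% to 32.6% in goblet-like cells and 22.9% to 42.8% in these droplets. The mix in enterocyte-like cells, with 4.37% to 22.1% Spink4 and 21.6% to 39.7% Zg16, lay within or near that of the droplets.

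**Figure D3:**
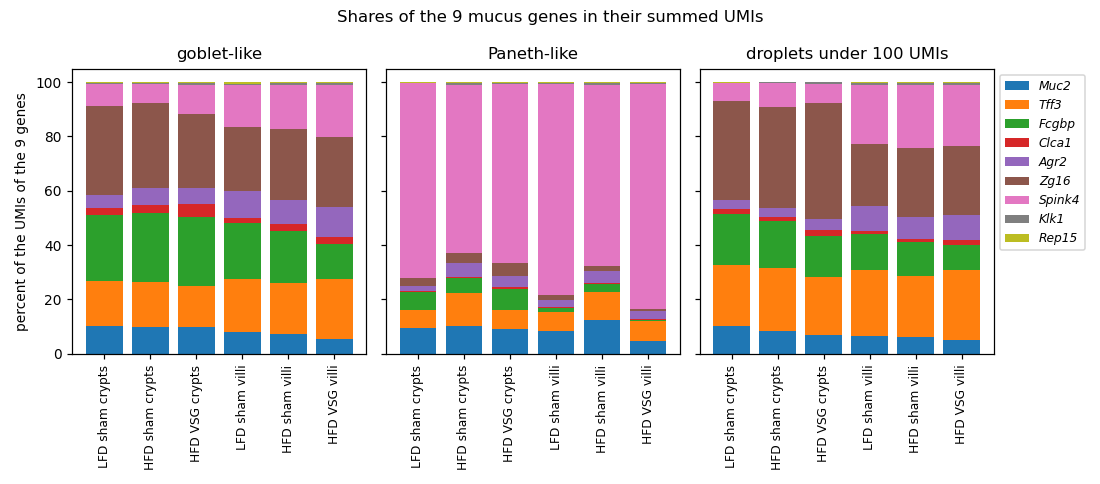
Share of each gene in the summed UMIs of the 9 mucus genes (percent, stacked to 100) in goblet-like cells, Paneth-like cells and droplets with fewer than 100 UMIs, 1 bar per library. Spink4 fills most of every Paneth-like bar, and a small part of every droplet and goblet-like bar.

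Among the rarer classes, enteroendocrine-like (EEC-like) cells, the hormone-producing cells, were above immune-like cells for Tff3 in each library where both classes had at least 20 cells, and for Agr2 in all of these but HFD VSG villi. In the 5 libraries with at least 20 of these cells, Tff3 ran from 394 to 962 CPM and Agr2 from 46.5 to 881 CPM. In HFD VSG villi Agr2 was at 46.5 CPM in EEC-like and 94.9 CPM in immune-like cells. For Agr2, 1 cell held 19.0% to 54.1% of each sum. Klk1 ran from 9.27 to 113 CPM in the same 5 libraries, with 11.8% to 100% of each sum in 1 cell. EEC-like cells came second to goblet-like cells for Klk1 in HFD VSG crypts, HFD sham villi and HFD VSG villi. Tuft-like cells, a chemosensory class, ran from 610 to 7679 CPM for the 9 genes summed. The highest of these values, that of HFD sham villi, rested on 1 cell with 75.1% of the sum, and without it the level was 2094 CPM.

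A sizeable share of the UMIs of the 9 genes lay outside the called cell barcodes, in droplets that may hold free RNA or uncalled cells. Of all their UMIs in any droplet, 52.4%, 44.4% and 50.7% lay in called cell barcodes of the crypt-labelled libraries and 69.0%, 73.4% and 71.0% in those of the villus-labelled ones. For the UMIs of all genes the shares were 64.7%, 55.7% and 73.4% and then 70.9%, 74.3% and 83.7%. The mucus genes were thus more often outside the called barcodes than the average gene in every library, by the most in HFD VSG crypts.

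Within the goblet-like class the genes did not all vary together. A finer clustering split it into cluster 11 (927 cells, median 15264 UMIs), cluster 18 (272 cells, median 4002.5 UMIs) and cluster 26 (56 cells, median 20126.5 UMIs). The 1 remaining cell fell elsewhere, and cluster 18 holds 506 cells in all, of which those outside the goblet-like class are not counted here. Cluster 18 had more of the gel proteins in all 6 libraries, at 1.83 to 5.19 times the level of cluster 11 for Muc2, 2.40 to 6.67 times for Fcgbp, 1.93 to 5.38 times for Clca1 and 1.23 to 3.27 times for Zg16. It had less Agr2 and Spink4 in all 6, at 0.105 to 0.525 and 0.119 to 0.553 times the level of cluster 11. Klk1 was also lower in all 6, at 0.370 to 0.882 times. Rep15 ran from 0.375 to 1.40 times and was higher in cluster 18 in 1 of 6 libraries. In LFD sham crypts, for example, Fcgbp stood at 77417 CPM in cluster 18 and 28811 CPM in cluster 11, and Agr2 at 1327 and 9445 CPM.

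Tff3 differed less, at 0.616 to 1.61 times, and was higher in cluster 18 in 5 of 6 libraries. Cluster 18 also differed in cell quality. Its median mitochondrial share was 9.49%, against 4.55% in cluster 11, and 4 RNAs of damaged droplets (Gm42418, Gm26917, Lars2 and AY036118) took 7.18% of its UMIs, against 1.91%. The part of cell quality in the difference between the clusters was not tested.

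Cluster 26 fell within the goblet-like class at the coarser resolution, but by its own markers it was cycling progenitor-like, with 10 of 10 markers of that class raised and no goblet marker among its 10 leading genes. All 56 cells had a UMI of at least 1 of 10 cycling markers, which stood at 4357 CPM, against 240 CPM in cluster 11 and 68.4 CPM in cluster 18. Each of the 9 genes was lower there than in cluster 11 in each of the 6 libraries. Agr2 came nearest, at a median of 0.702 times the level of cluster 11, followed by Spink4 at 0.495 and Tff3 at 0.485 times, while Muc2 was at 0.247, Clca1 at 0.131 and Zg16 at 0.0749 times. Each library gave 4 to 19 of these cells, so its own values are imprecise.

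**Figure D4:**
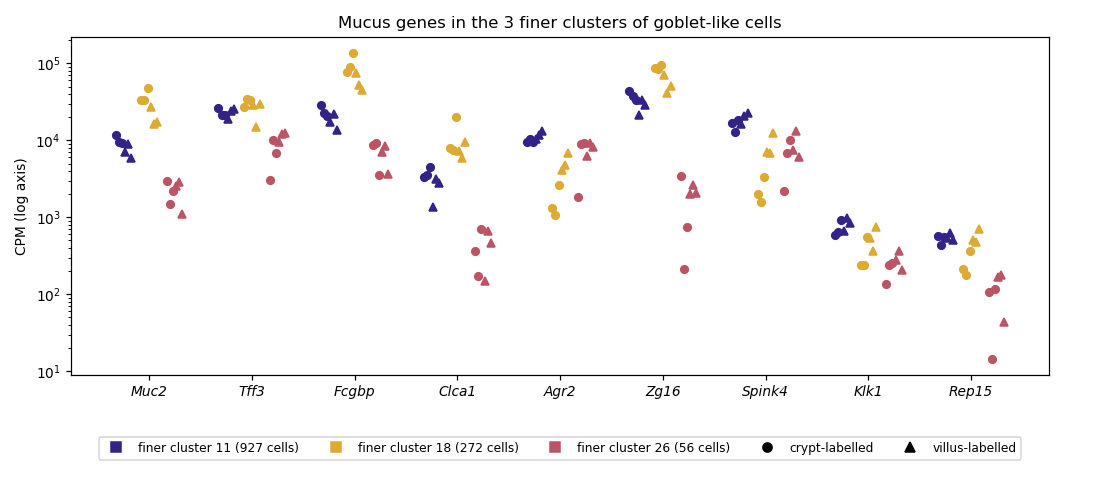
CPM (log axis) of each mucus gene in the 3 finer clusters of goblet-like cells, 1 point per library (circles crypt-labelled, triangles villus-labelled). Cluster 18 lies above cluster 11 for Muc2, Fcgbp, Clca1 and Zg16 and below it for Agr2 and Spink4, and cluster 26 lies lowest for Muc2, Clca1 and Zg16.

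Single cells were compared in the same way. Over goblet-like cells thinned to 1500 UMIs (85 to 316 per library), Spearman's rho of Muc2 with Fcgbp was 0.87 as the median of the 6 libraries (0.77 to 0.94), and that of Fcgbp with Zg16 was 0.78 (0.70 to 0.84). Agr2 and Spink4 went together, at 0.59 (0.28 to 0.79). Between Muc2, Fcgbp, Clca1 and Zg16 on one side and Agr2 and Spink4 on the other the median rho ran from -0.24 for Muc2 with Agr2 (-0.49 to 0.10) to 0.063 for Zg16 with Spink4 (-0.24 to 0.43), and single libraries reached 0.55 for Muc2 with Spink4. The values describe cells of 1 library each, which share its free RNA, and in which a high share of 1 gene lowers that of the others.

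The crypt-labelled and villus-labelled goblet-like cells differed along this line. The log2 ratio of villus-labelled to crypt-labelled cells was -0.996, -0.60 and -1.26 for Muc2 in LFD sham, HFD sham and HFD VSG, -0.92, -0.61 and -1.37 for Fcgbp and -1.33, -0.36 and -1.18 for Clca1. It was 0.39, 0.44 and 0.58 for Agr2 and 0.21, 1.01 and 0.47 for Spink4. With the stated free RNA subtracted, the HFD sham ratio was 0.21 for Agr2 and -0.58 for Clca1, and with totals without the 9 genes the LFD sham ratio of Spink4 was 0.12. The gel proteins were lower and Agr2 and Spink4 higher in the villus-labelled library of all 3 groups. How many of all genes kept 1 direction in all 3 groups is not given. Cluster 18 moved with these values, since it made up 45.6%, 45.9% and 31.8% of goblet-like cells in the crypt-labelled and 18.0%, 16.0% and 8.39% in the villus-labelled libraries. Its part in the difference was not tested. Within cluster 11 alone, Muc2 stood at 11816 in the crypt-labelled against 7021 CPM in the villus-labelled library of LFD sham, at 9389 against 8877 CPM in HFD sham and at 9204 against 5841 CPM in HFD VSG, so that the gap of HFD sham was small there. Fcgbp in cluster 11 stood at 28811 against 17087 CPM in LFD sham, 22493 against 22099 CPM in HFD sham and 20763.5 against 13699 CPM in HFD VSG. Spink4 in cluster 11 of LFD sham was at 16742 CPM in the crypt-labelled and 16288 CPM in the villus-labelled library, the opposite order to that in all goblet-like cells.

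For diet and surgery, the question was whether goblet-like cells held more or less mucus RNA after HFD and after VSG. The 2 comparisons of each fraction share the HFD sham library, so a high or low value there enters both. A log2 ratio of CPM beyond 0.5 in size, the size the study used, was counted. Summed over the 9 genes, no ratio lay beyond 0.5. From LFD sham to HFD sham the sum went from 153726 to 138177 CPM in the crypt-labelled libraries (log2 ratio -0.15, -0.16 to -0.14) and from 96306 to 122311 CPM in the villus-labelled ones (0.34, 0.34 to 0.35). From HFD sham to HFD VSG it went to 143962 CPM in the crypt-labelled (0.06, 0.05 to 0.07) and to 111999 CPM in the villus-labelled libraries (-0.13, -0.13 to -0.12, but 0.14 on the median-of-ratios scale).

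In the crypt-labelled libraries, from LFD sham to HFD sham, 0 of the 9 genes lay beyond 0.5 in either direction, where 4.35% of 3702 genes that averaged 50 UMIs or more per library lay above and 6.86% below. The nearest were Rep15 (-0.48, -0.70 to -0.26) and Spink4 (-0.40, -0.44 to -0.35). After subtraction of free RNA with the fractions stated by the study, all 9 ratios moved upward by a near equal amount. Agr2 was then at 0.60 and Spink4 at 0.01, and the sum turned to 0.26. The stated fractions differed between libraries and were highest in those of HFD sham. Taking more from 1 total shifts all ratios of such genes together, so the 9 shifts are not separate observations. With a fraction of 0.1 in every library the sum was at -0.15. An equal fraction scales both totals alike, so it can hardly move ratios of genes so high in goblet-like cells. The HFD sham crypts library had the fewest goblet-like cells (85) and the shallowest (median 6424 UMIs, against 11785 in LFD sham).

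After VSG, 4 of the 9 genes lay above 0.5 in the crypt-labelled libraries, where 11.0% of genes did, and 0 of 9 lay below -0.5, where 7.48% did. These were Clca1 (0.69, 0.63 to 0.75), Spink4 (0.67, 0.63 to 0.71), Klk1 (0.66, 0.49 to 0.83) and Rep15 (0.54, 0.33 to 0.76). Muc2 (0.07), Fcgbp (0.05) and Tff3 (-0.06) were near 0. With the stated free RNA subtracted the 4 ratios were 0.28, 0.27, 0.25 and 0.12, all under 0.5, and the ratio of the sum was then -0.35 and that of Zg16 -0.55. A fraction of 0.1 subtracted in every library can hardly move such ratios. With it these 4 ratios were above 0.5, and the sum was at 0.06. Clca1 was at 0.34 without cells above 10% mitochondrial UMIs and at 0.35 in cluster 11 alone, where Rep15 was at 0.36, and Rep15 was at 0.45 with at least 1500 genes per cell.

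In the villus-labelled libraries, all 9 genes were higher in HFD sham than in LFD sham goblet-like cells, each with an interval above 0. The share of all genes with such an interval is not given, so this count is not read as particular to the 9 genes. In the wider pathway list below, 32 of 68 genes had an interval above 0 and 10 had one below 0. Clca1 went from 1639 to 3137 CPM (0.94, 0.89 to 0.98) and Klk1 from 619 to 902 CPM (0.54, 0.47 to 0.62), the 2 of 9 beyond 0.5, where 2.95% of 7682 genes lay. None of the 9 lay below -0.5, where 5.29% did. Zg16 followed at 0.48, Spink4 at 0.40 and Tff3 at 0.30, and the median of the 9 was 0.30, against -0.02 over all 7682 genes. With the stated free RNA subtracted, the ratios were higher, at 1.12 for Clca1 and 0.52 for the sum. With a fraction of 0.1 in every library, which can hardly move it, the sum was at 0.35. With cells thinned to 1500 UMIs, which weighs cells equally, the sum was at 0.14, and Muc2 (-0.091, -0.15 to -0.033), Rep15 (-0.081, -0.35 to 0.19) and Fcgbp (-0.011, -0.046 to 0.025) were on the other side of 0, while Clca1 was at 0.58 and Klk1 at 0.56. Klk1 was at 0.48, under 0.5, when the class was taken at the finer resolution.

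After VSG, Muc2 and Fcgbp were the 2 of 9 genes below -0.5 in the villus-labelled libraries, where 28.3% of all genes were, and 0 of 9 were above 0.5, where 5.84% were. Muc2 went from 8963 to 5964 CPM (-0.59, -0.61 to -0.57) and Fcgbp from 23224 to 14158 CPM (-0.71, -0.73 to -0.70). Agr2 (0.18), Spink4 (0.13) and Tff3 (0.12) were slightly higher, but with the stated free RNA subtracted they were at -0.030, -0.068 and -0.087, with Muc2 at -0.80 and Fcgbp at -0.93. The median of all genes was itself at -0.23, and the median of the 9 genes was -0.14. On the median-of-ratios scale Muc2 was at -0.33, Fcgbp at -0.45 and Agr2 at 0.45. Cluster 18 made up 16.0% of HFD sham and 8.39% of HFD VSG goblet-like cells here, and within cluster 11 alone Muc2 was at -0.60 and Fcgbp at -0.69.

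**Figure D5:**
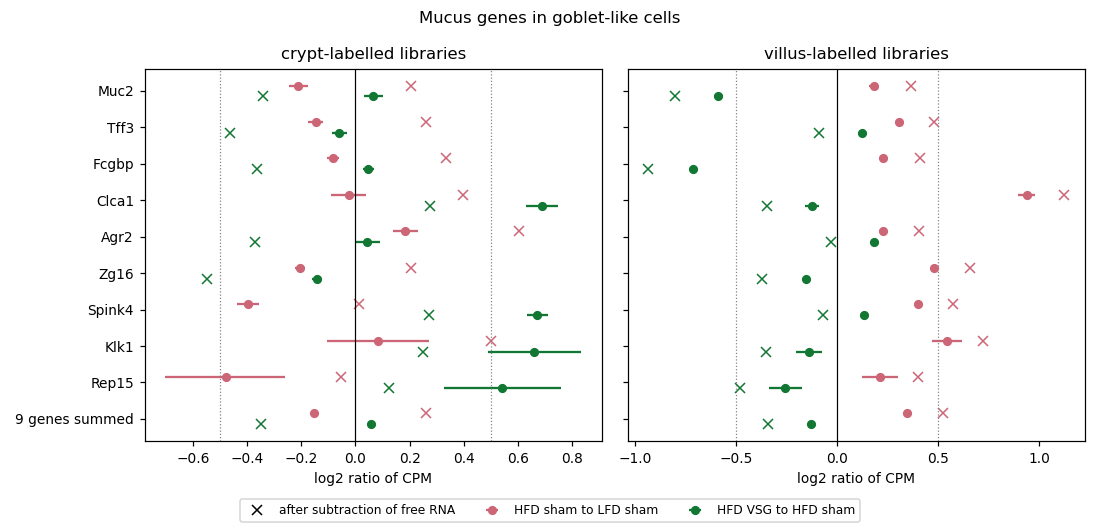
Log2 ratio of CPM in goblet-like cells for each mucus gene and their sum, with 95% counting intervals (bars), from LFD sham to HFD sham (red) and HFD sham to HFD VSG (green); crosses are the ratios after subtraction of free RNA with the stated fractions and dotted lines mark 0.5 and -0.5. In the crypt-labelled panel the crosses lie on the other side of 0 for both summed ratios.

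The wider pathway was read from a list of 82 genes in 5 groups, of which 62 reached a mean of 50 UMIs in the crypt-labelled and 68 in the villus-labelled goblet-like cells. From LFD sham to HFD sham in the crypt-labelled libraries, 3 lay above 0.5 and 1 below, where 4.35% and 6.86% of all genes tested did. The highest were Stxbp2 (0.87), a syntaxin-binding protein of granule release, the calpain Capn8 (0.86) and the isomerase Pdia5 (0.81), from 49 to 176 UMIs a library. The lowest were the scavenger protein Dmbt1 (-3.81), the angiogenin Ang4 (-0.42) and Atoh1 (-0.37), the factor that commits cells to the secretory lineage.

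After VSG in the same libraries 6 lay above and 4 below, where 11.0% and 7.48% of all genes did. Dmbt1 (1.93), Ang4 (1.85) and Creb3l4 (0.80), a transcription factor of the endoplasmic reticulum membrane, were highest, and the membrane mucin Muc3 (-1.52), Stxbp2 (-0.75) and Capn8 (-0.65) lowest. Muc3a, a separate entry of the list, was at 0.16. Dmbt1 is also on the early progenitor marker list and Ang4 on the Paneth list, and Dmbt1 rested on 15 UMIs in HFD sham.

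In the villus-labelled libraries 4 of the 68 lay above 0.5 and 5 below from LFD sham to HFD sham, where 2.95% and 5.29% of all genes did. The highest were Ang4 (0.95), the calpain Capn9 (0.72) and Capn8 (0.62), and the lowest Dmbt1 (-2.01), the chloride channel Cftr (-1.004) and the inflammasome sensor Nlrp6 (-0.81). After VSG 2 lay above and 24 below, where 5.84% and 28.3% of all genes did. The 24 included 8 of 14 O-glycosylation genes and 9 of 18 genes of granules and secretion. These counts are in CPM and depend on the scale. Median-of-ratios scaling moves every ratio of this comparison upward by the same amount, for Muc2 from -0.59 to -0.33. The median was -0.51 for O-glycosylation, -0.49 for granules and secretion and -0.26 for folding and export, against -0.23 over all genes. The lowest were Muc3 (-2.20), Nlrp6 (-1.42) and Dmbt1 (-1.38), and the highest were Sec61b (0.60), a subunit of the translocation channel, Vamp8 (0.52), a protein of granule fusion, and the selenoprotein Selenom (0.49). Muc3 rested on 76 UMIs in HFD sham and 38 in HFD VSG, and Muc3a was at -0.052. The lineage factors, 8 genes, were all within 0.5 in both comparisons of the villus-labelled libraries.

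Over 57 sums of a class and library, the 5 genes with the pattern most like that of the 9 summed were Galnt5 (Pearson r = 0.94), Bcas1 (0.93), Galnt7 (0.93), Ern2 (0.93) and Ccl9 (0.92), of 11282 genes with at least 500 UMIs. Galnt5 and Galnt7 are transferases of O-glycosylation, Ern2 is a stress sensor of the endoplasmic reticulum and Ccl9 is a chemokine. Bcas1 and Ern2 are goblet markers that helped to name the class. The sums share libraries and free RNA, so r is a description. Among the 9 themselves, each of which is part of the sum, r with that sum ran from 0.85 for Klk1 to 0.98 for Muc2.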

How the data were processed

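Single cells of 6 libraries were measured by droplet 3′ RNA sequencing. The authors made raw and filtered UMI count matrices (Cell Ranger 6.0.0 and mm10, as named in the submitters' processing notes), and the deposited counts were used as they stand. Barcodes with under 750 genes or over 20% mitochondrial UMIs and 482 to 1154 scored doublets per library (0.8% per 1000 barcodes, by likeness to simulated doublets) were removed. Libraries were normalised with SCTransform and integrated in Seurat 5.3.0 (2000 genes without the 9 members, 30 components, resolution 0.4, finer 0.8). A cluster was called X-like when over 50% of a class's markers, and at least 3, were at 2 times the median cluster or more in at least 10% of cells. Clusters led by RNAs of damaged droplets or by markers of another class, and the rest, stayed unnamed, among them 2 clusters kept out of the early progenitor class by a condition set after the data were seen. Counts were summed by class and library. Intervals are exact Poisson, binomial or conditional binomial (95%), sums under 3 UMIs were set to 3 in ratios, and genes averaging 50 UMIs or more per library gave the background. The interval code was tested on simulated data. The named genes were the 9 members, the 3 highest and 3 lowest of the pathway list in each comparison and the 5 genes most like the sum. Members and lists were chosen with earlier results of these data known. Depth was 60522766 to 155522445 UMIs in called barcodes per library, and PCR duplicates were removed by UMI. Alternatives were free RNA subtraction, other filters, thinning to 1500 UMIs, other scalings and other clusterings.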

Additional observations from a re-analysis of the deposited data

How the results depend on the processing

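The summed goblet-like ratios were small, and most alternatives moved them by more than the counting interval. The cause was not tested. From LFD sham to HFD sham in the crypt-labelled libraries the ratio was -0.15. It was 0.26 with the stated free RNA fractions subtracted, -0.31 with at least 1500 genes per cell and -0.30 with at most 10% mitochondrial UMIs. It was -0.35 with doublets kept, -0.24 thinned to 1500 UMIs and -0.18 with totals without the 9 genes. At the finer resolution it was -0.23, with the 9 genes in the clustering -0.17 and in finer cluster 11 alone -0.27. With a free RNA fraction of 0.1 in every library it was -0.15, and with median-of-ratios scaling -0.16. For VSG there the ratio was 0.06. It was -0.35 with the stated fractions subtracted, 0.18 with at least 1500 genes per cell and -0.13 with at most 10% mitochondrial UMIs. It was 0.12 with doublets kept, 0.14 thinned, 0.023 with median-of-ratios scaling, 0.15 at the finer resolution and 0.0063 in cluster 11. With 0.1 in every library it was 0.06, with totals without the 9 genes 0.07 and with the 9 genes in the clustering 0.07. In the villus-labelled libraries, the settings from stated subtraction to thinning gave 0.52, 0.37, 0.36, 0.32 and 0.14, against 0.34 from LFD sham to HFD sham. The value was 0.36 with median-of-ratios scaling, 0.39 without the 9 genes in the totals and 0.27 at the finer resolution. It was 0.32 with the 9 genes in the clustering, 0.43 in cluster 11 and 0.35 with 0.1 in every library. Against -0.13 for VSG there, the value was -0.34 after subtraction of the stated fractions, -0.17 with at most 10% mitochondrial UMIs, -0.26 with doublets kept and -0.061 thinned. It was 0.14 with median-of-ratios scaling, -0.14 without the 9 genes in the totals and -0.055 at the finer resolution. With the 9 genes in the clustering it was -0.061 and in cluster 11 -0.15. It was -0.13 with 0.1 in every library and -0.12 with at least 1500 genes per cell. The Paneth-like level of the sum as a percent of goblet-like moved from 10.1% to 35.4% with median-of-ratios scaling. Cluster 11 alone was added after seeing the data, as was the set of Paneth-like cells with few goblet marker UMIs. The fraction of 0.1 in every library scales both totals of a comparison alike, so it could hardly move the summed ratios.

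Of the 8 single gene ratios beyond 0.5, each kept its sign under the 11 alternatives run on them. Among these alternatives, the free RNA fraction of 0.1 in every library could hardly move a ratio. Their ranges in the crypt-labelled libraries after VSG were 0.28 to 0.89 for Clca1, 0.27 to 0.82 for Spink4, 0.25 to 1.02 for Klk1 and 0.12 to 0.69 for Rep15. In the villus-labelled libraries they were 0.58 to 1.18 for Clca1 and 0.48 to 0.72 for Klk1 from LFD sham to HFD sham, and -0.80 to -0.33 for Muc2 and -0.93 to -0.45 for Fcgbp after VSG. The share of all genes beyond 0.5 was computed for the CPM ratios only. No paired analysis was possible because the comparisons of diet and of surgery have 1 library per group in each fraction. Between fractions the 3 groups give 3 pairs of libraries, whose ratios the report describes without a test. With 1 pooled library per group, diet or surgery cannot be told apart from the pool of mice or the library, and 31 to 229 Paneth-like cells per library limit their values.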
